A study of Mus musculus with 30 samples.

Results

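Thyroids of male FAD4T mice of 2 months were compared with thyroids of wild-type males of the same age, with 3 libraries of each genotype from 3 mice per group by the series design. These 6 libraries, out of 30 in the series, are the ones whose titles number the males of 2 months 1 to 3, and a further set of wild-type males of that age, numbered 4 to 6, was left out. All mice are of the C57BL/6 strain. The labels give the genotype of the tested mice as FAD4T and that of their controls as wild type, and they do not say what FAD4T stands for, which alleles or transgenes the mice carry or which promoter drives them. Poly(A) RNA of the thyroid was sequenced and read pairs were counted per gene, so cell types were not separated. Litters and days of dissection are not stated. A p-value here reflects only how far mice varied within the groups of the fit. That fit held 24 libraries of 8 groups, of both sexes at 2 and 8 months, and not only these 6.

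The thyroid follicle is a ring of epithelial cells around a store of thyroglobulin, the protein on which thyroid hormone is assembled after the cells have taken up and oxidised iodide. Thyrotropin from the pituitary drives these steps through its receptor and cyclic AMP. In the mouse the gland lies against the trachea, holds calcitonin-making C cells and the parathyroids, and is bordered by fat and muscle, and pieces of thymus can lie beside or within it. Genes answering to interferon are a common readout of innate immune signalling in any tissue, and they include parts of the machinery that presents antigens on MHC class I.

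Totals were 14990915 to 17092769 counts in FAD4T libraries and 16214451 to 17320013 counts in wild-type libraries. Levels are in CPM, counts scaled by the library total and by TMM. The thyroid identity of all 6 libraries was plain in its defining genes: Pax8 and Nkx2-1, which encode thyroid transcription factors, were at 489 to 653 CPM and 506 to 688 CPM in FAD4T glands, against 403 to 594 CPM and 449 to 653 CPM in wild-type glands. The libraries of a genotype were not alike. Over all genes tested, FAD4T replicate 1 differed from each wild-type library by a median of 0.17 to 0.22 on the log2 scale, and from FAD4T replicates 2 and 3 by 0.31 and 0.38. Among wild-type libraries, replicate 1 was the nearest to FAD4T replicates 2 and 3, at 0.23 and 0.29. Without FAD4T replicate 1 the shares of all genes at a small p were themselves larger, and counts without it are read against those shares.

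No gene passed the test. Of 18493 genes tested, edgeR's quasi-likelihood test with Benjamini-Hochberg adjustment called 0 (0%) at an adjusted p of 0.05, and the smallest adjusted p was 0.343. An unadjusted p under 0.05 was reached by 2679 genes (14.5%), of which 1647 had FAD4T higher (8.91% of all genes tested) and 1032 had FAD4T lower (5.58%). DESeq2 on the same libraries called 102 genes (0.552%), 94 higher (0.508%) and 8 lower (0.0433%). Of these, 18 were under 1 CPM in all 6 libraries, and their smallest edgeR p was 0.161. FAD4T replicate 1 lay outside the wild-type range for 39.1% of the 1647 genes and 46.5% of the 1032, while FAD4T replicates 2 and 3 did so for 96.8% and 97.1% of the higher and 97.0% and 98.7% of the lower genes. Without FAD4T replicate 1, edgeR called 36 genes (0.19%), with 32 higher and 4 lower, while 2698 genes (14.3%) were higher and 3219 (17%) lower at an unadjusted p under 0.05. With FAD4T replicate 1 as the only FAD4T library, taken to vary as the other groups do, edgeR called 0 genes (0%) and 337 (1.69%) stood at an unadjusted p under 0.05. The count with FAD4T higher was 777 without FAD4T replicate 2, 785 without FAD4T replicate 3 and 812 or 968 when wild-type replicate 2 or 3 was left out. The count with FAD4T lower was 325, 269, 329 and 583 without the same libraries and 1799 without wild-type replicate 1. List counts given below without a library belong beside these, since the counts of all genes moved too. Below, genes are described by their levels, "higher" and "lower" refer to those levels, and members of a gene list are counted at an unadjusted p under 0.05 against the shares of all genes given here.

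**Figure D1:**
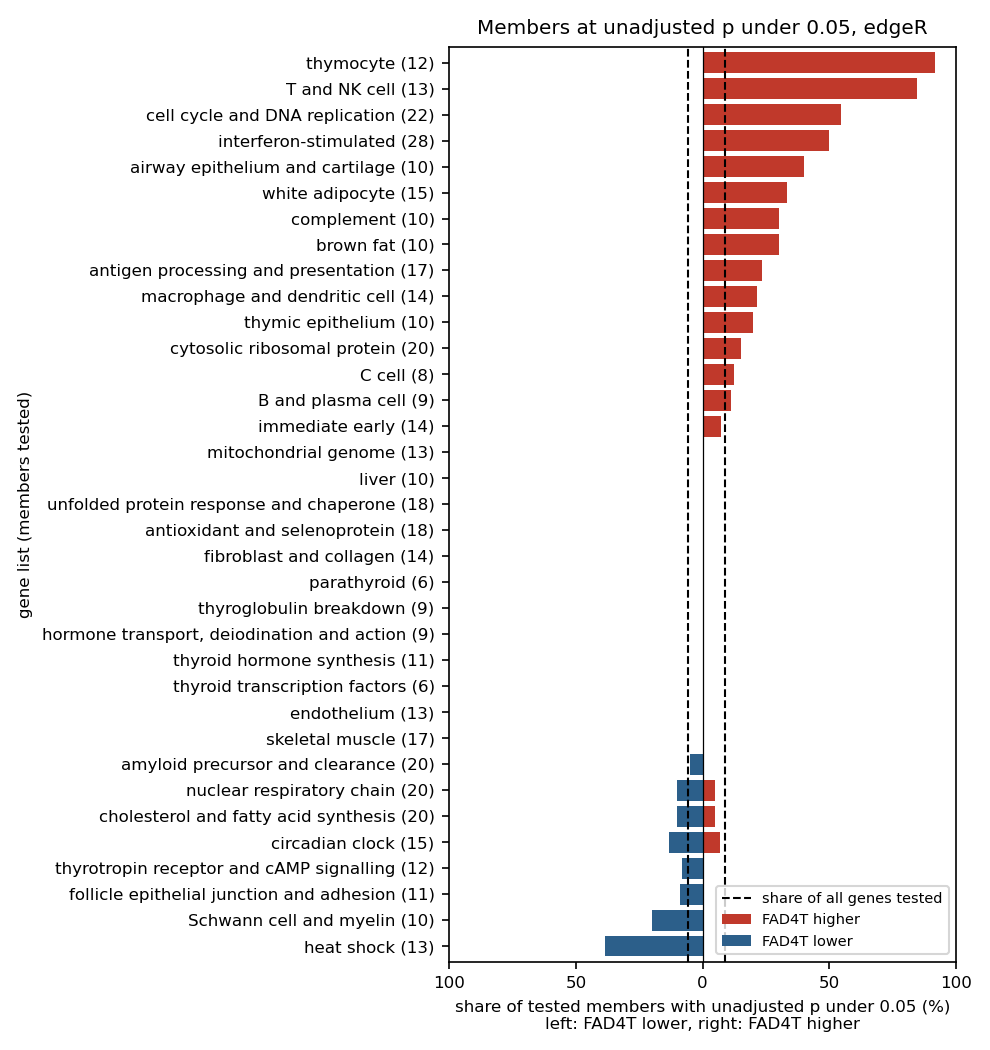
Share of the tested members of 35 gene lists at an unadjusted p under 0.05 by edgeR, in %, with FAD4T higher drawn to the right and FAD4T lower to the left; the number of members tested is in brackets and the dashed lines mark the shares of all genes, 8.91% and 5.58%. Thymocyte, T and NK cell, cell cycle and interferon-stimulated genes reach furthest to the right, and heat shock genes furthest to the left.

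The genes described next have the smallest p-values in each direction among named genes of at least 5 CPM in 1 group whose groups did not overlap. The lack of overlap, and with it the direction in FAD4T replicate 1, was thus a condition of the choice and not a result. Tap1, which encodes a subunit of the transporter that feeds peptides to MHC class I, was at 41.1, 44.4 and 36.6 CPM in FAD4T glands, against 25.7, 25.5 and 28.0 CPM in wild-type glands (log2 fold change 0.62 ± 0.13 SE, adjusted p = 0.343 by edgeR, 0.00673 by DESeq2). All 3 FAD4T libraries lay above all 3 wild-type libraries, and FAD4T replicate 1 by itself gave 0.64. Socs1, an inhibitor of cytokine signalling through JAK kinases, was at 10.8, 11.5 and 7.07 CPM in FAD4T glands, against 3.46, 1.65 and 4.76 CPM in wild-type glands (log2 fold change 1.57 ± 0.39 SE, adjusted p = 0.343 by edgeR, 0.0199 by DESeq2). Here too the groups did not overlap, and FAD4T replicate 1 by itself gave 1.71.

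Other genes of this set differed most in FAD4T replicates 2 and 3. Pirb, an inhibitory receptor of myeloid and B cells, was at 6.93, 9.92 and 12.4 CPM in FAD4T glands, against 5.45, 3.89 and 5.54 CPM in wild-type glands (log2 fold change 0.97 ± 0.21 SE). Lcp2, the adaptor SLP-76 of T-cell receptor signalling, was at 3.24, 18.5 and 6.33 CPM in FAD4T glands, against 1.87, 1.32 and 2.38 CPM in wild-type glands (log2 fold change 2.33 ± 0.54 SE). Without FAD4T replicate 1 both reached an adjusted p of 0.048 by edgeR. The same held for Ifi27l2a, described with the interferon genes, and for Carmil2, Slc16a5, Traf3ip3, Trac, Rasal3 and Ifi209. Of these, Carmil2, a regulator of actin in T cells, had the widest spread, at 1.79, 45.9 and 16.5 CPM in FAD4T glands and 0.527 to 1.25 CPM in wild-type glands. Ifi209 belongs to a cluster of near-identical genes and its counts are uncertain. The set chosen by the smallest p also held Vav1 (log2 fold change 1.80), Ltb, the lymphotoxin beta gene (2.16), and Galnt6 (2.90). Its last member was Unc93b1, which carries Toll-like receptors to endosomes (0.53).

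The genes with FAD4T lower differed by less. Klf3, a transcriptional repressor, was at 93.5, 89.5 and 81.6 CPM in FAD4T glands, against 114, 126 and 115 CPM in wild-type glands (log2 fold change -0.42 ± 0.11 SE, adjusted p = 0.343 by edgeR, 0.0178 by DESeq2). Atf2, a transcription factor of the stress kinase pathways, was at 48.6, 43.4 and 38.3 CPM in FAD4T glands, against 55.0, 66.8 and 61.4 CPM in wild-type glands (log2 fold change -0.49 ± 0.13 SE, adjusted p = 0.343 by edgeR, 0.0361 by DESeq2). In both genes every FAD4T library, replicate 1 included, lay below every wild-type library, as the choice required. The other genes chosen by the smallest p were Ccser1 (log2 fold change -0.91), Tbc1d15 (-0.61), the adaptor Nck1 (-0.53), the nucleotide receptor P2ry1 (-0.56), the inhibitory G protein subunit Gnai1 (-0.62), the corepressor Tle4 (-0.59), the pyrimidine-degrading enzyme Dpyd (-0.87), the kinase scaffold Akap12 (-0.79), the transcription factor Sp3 (-0.50), Gphn (-0.38), the isoleucyl-tRNA synthetase Iars (-1.02), Kif21a (-0.46) and Usp32 (-0.46). By the choice, each had the 3 FAD4T libraries, replicate 1 included, below the 3 wild-type libraries. Each had an adjusted p of 0.343 by edgeR. Without FAD4T replicate 1, Tle4 and Ccser1 reached an adjusted p of 0.048 by edgeR. With all libraries DESeq2 gave Ccser1 an adjusted p of 0.0414. Over all genes tested, 5.68% had the FAD4T libraries below the wild-type libraries without overlap and 6.42% had them above.

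**Figure D2:**
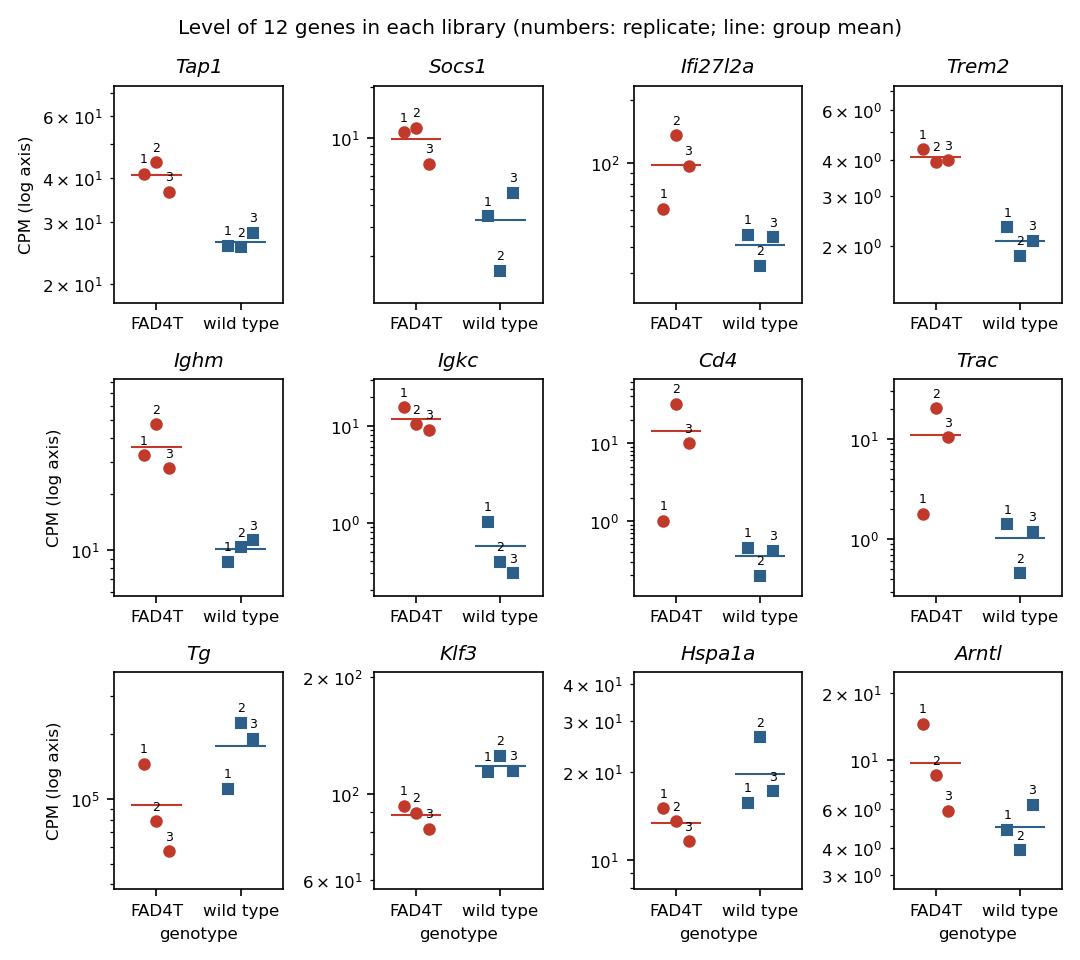
Level of 12 genes in each library, in CPM on a log axis that differs between panels, with FAD4T (red circles) left of wild type (blue squares), replicate numbers beside the points and a line at each group mean. In all panels but Tg and Arntl the genotypes do not overlap. Cd4 and Trac are much higher in FAD4T replicates 2 and 3 than in FAD4T replicate 1, and Tg is low in FAD4T replicates 2 and 3.

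The thyroid's own genes were mostly a little lower in FAD4T glands, where 47.9% of all genes were lower. Of 58 tested members of 6 lists, 2 were lower at an unadjusted p under 0.05 (5.58% of all genes). None was higher at that p (8.91% of all genes), so neither share was above that of all genes. Without FAD4T replicate 1, 18 of the 58 were lower at that p (17% of all genes) and 1 was higher (14.3% of all genes), with 6 of 11 junction, 4 of 11 synthesis and 4 of 12 cyclic AMP genes lower. Of 11 genes of hormone synthesis, 1 was higher and 10 lower, at a median of -0.23 in log2 fold change (the median of all genes was 0.02), and 0 were at an unadjusted p under 0.05. Tg, which encodes thyroglobulin, was at 145549, 78659 and 57104 CPM in FAD4T glands, against 111438, 225541 and 190571 CPM in wild-type glands (log2 fold change -0.91 ± 0.56 SE, adjusted p = 0.391 by edgeR). FAD4T replicate 1 lay within the wild-type range and replicates 2 and 3 below it. In these bulk libraries fewer follicle cells and less RNA per cell cannot be told apart.

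Slc5a5, the iodide importer, was at 216, 153 and 395 CPM in FAD4T glands, against 162, 444 and 292 CPM in wild-type glands. Tshr, the thyrotropin receptor, was at 48.2, 39.6 and 46.1 CPM in FAD4T glands, against 41.9, 45.5 and 47.7 CPM in wild-type glands. In both genes the groups overlapped, with adjusted p of 0.849 and 0.992 by edgeR.

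Of 6 thyroid transcription factors 4 were lower (47.9% of all genes), at a median log2 fold change of -0.30, and 0 were at an unadjusted p under 0.05. Of 12 genes of thyrotropin and cyclic AMP signalling 10 were lower (median -0.18), and 1 was, Prkar1a, a regulatory subunit of protein kinase A (-0.37 ± 0.16 SE). Of 11 junction and adhesion genes 9 were lower (median -0.47), and 1 was, Ocln, the tight-junction protein occludin. Ocln was at 36.6, 21.6 and 20.5 CPM in FAD4T glands, against 35.5, 47.2 and 44.8 CPM in wild-type glands (log2 fold change -0.70 ± 0.30 SE). As with Tg, FAD4T replicate 1 lay within the wild-type range. With FAD4T replicate 1 as the only FAD4T library, the medians of these lists were -0.03, -0.07 and -0.22, and that of hormone synthesis -0.01. Genes of hormone transport and deiodination (4 of 9 higher, median -0.08) and of thyroglobulin breakdown (1 of 9 higher, median -0.23) had 0 members at an unadjusted p under 0.05. Among them Dio1, the deiodinase that activates thyroxine, was at 518, 317 and 265 CPM in FAD4T glands, against 415, 470 and 570 CPM in wild-type glands.

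Genes of developing T cells were far higher in FAD4T replicates 2 and 3 than in every other library of the comparison. Of 12 thymocyte genes all 12 were higher in FAD4T glands, 11 at an unadjusted p under 0.05, with a median log2 fold change of 5.72. Their levels summed to 47.8, 738 and 202 CPM in FAD4T glands, against 51.2, 55.8 and 35.9 CPM in wild-type glands. By this sum FAD4T replicate 1 lay within the wild-type range, but by the mean of log2(CPM + 1), which weights members equally, it was at 1.31, against 1.08 to 1.24 in wild-type glands, and 8 of the 12 genes were higher in it. Without FAD4T replicate 2, 6 of the 12 were at an unadjusted p under 0.05. Cd4, the coreceptor of helper T cells and of immature thymocytes, was at 1.01, 32.0 and 9.97 CPM in FAD4T glands, against 0.454, 0.198 and 0.417 CPM in wild-type glands (log2 fold change 5.28 ± 1.37 SE, adjusted p = 0.343 by edgeR, 0.00439 by DESeq2). Rag1, the recombinase that assembles antigen receptors, was at 0.112, 67.8 and 15.6 CPM in FAD4T glands, against 0.0567, 0.264 and 0 CPM in wild-type glands. Dntt, which adds bases at receptor joints and marks immature lymphocytes, was at 0.168, 53.9 and 9.18 CPM in FAD4T glands, against 0.0567, 0.132 and 0 CPM in wild-type glands. Both were at or near 0 in the 4 other libraries. Of the 12 genes, 2 were at 0 in FAD4T replicate 1, 1 in wild-type replicate 1 and 3 in wild-type replicate 3.

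Mature T and NK cell genes followed the same libraries. All 13 were higher in FAD4T glands and 11 were at an unadjusted p under 0.05, with a median log2 fold change of 3.38, and their levels summed to 19.2, 305 and 129 CPM in FAD4T glands, against 19.97, 12.6 and 16.0 CPM in wild-type glands. Cd3g, a chain of the T-cell receptor complex, was at 1.57, 50.6 and 11.5 CPM in FAD4T glands, against 1.02, 1.78 and 1.13 CPM in wild-type glands. With FAD4T replicate 1 as the only FAD4T library, the medians were 0.53 for thymocyte genes and 0.26 for T and NK cell genes, with 0 members of either list at an unadjusted p under 0.05 and FAD4T higher. Without FAD4T replicate 2, 7 of the 13 T and NK cell genes were at an unadjusted p under 0.05.

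Thymic epithelium divided the libraries another way. Prss16, the thymus-specific protease of cortical epithelium, was at 0.783, 93.6 and 73.1 CPM in FAD4T glands, against 32.6, 2.17 and 0.834 CPM in wild-type glands. Ccl25, a chemokine that draws thymocyte precursors, was at 8.50, 53.0 and 30.5 CPM in FAD4T glands, against 22.2, 9.55 and 7.80 CPM in wild-type glands. Wild-type replicate 1 was thus the highest wild-type library for these epithelial genes and did not stand out for thymocyte genes. Over the 10 genes of the list, summed levels were 53.2, 222 and 187 CPM in FAD4T glands, against 140, 61.1 and 58.5 CPM in wild-type glands. Of the 10, 8 were higher and 2 lower, and 2 members were higher at an unadjusted p under 0.05. Trp63, a lower member, was at 18.5, 14.8 and 19.4 CPM in FAD4T glands, against 25.1, 21.2 and 22.5 CPM in wild-type glands (log2 fold change -0.39 ± 0.25 SE). Thy1, a surface protein of T cells and neurons whose promoter is often used in transgenes, was at 26.3, 140 and 57.6 CPM in FAD4T glands, against 23.2, 19.0 and 21.5 CPM in wild-type glands (log2 fold change 1.81 ± 0.50 SE, adjusted p = 0.343 by edgeR, 0.0219 by DESeq2).

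**Figure D3:**
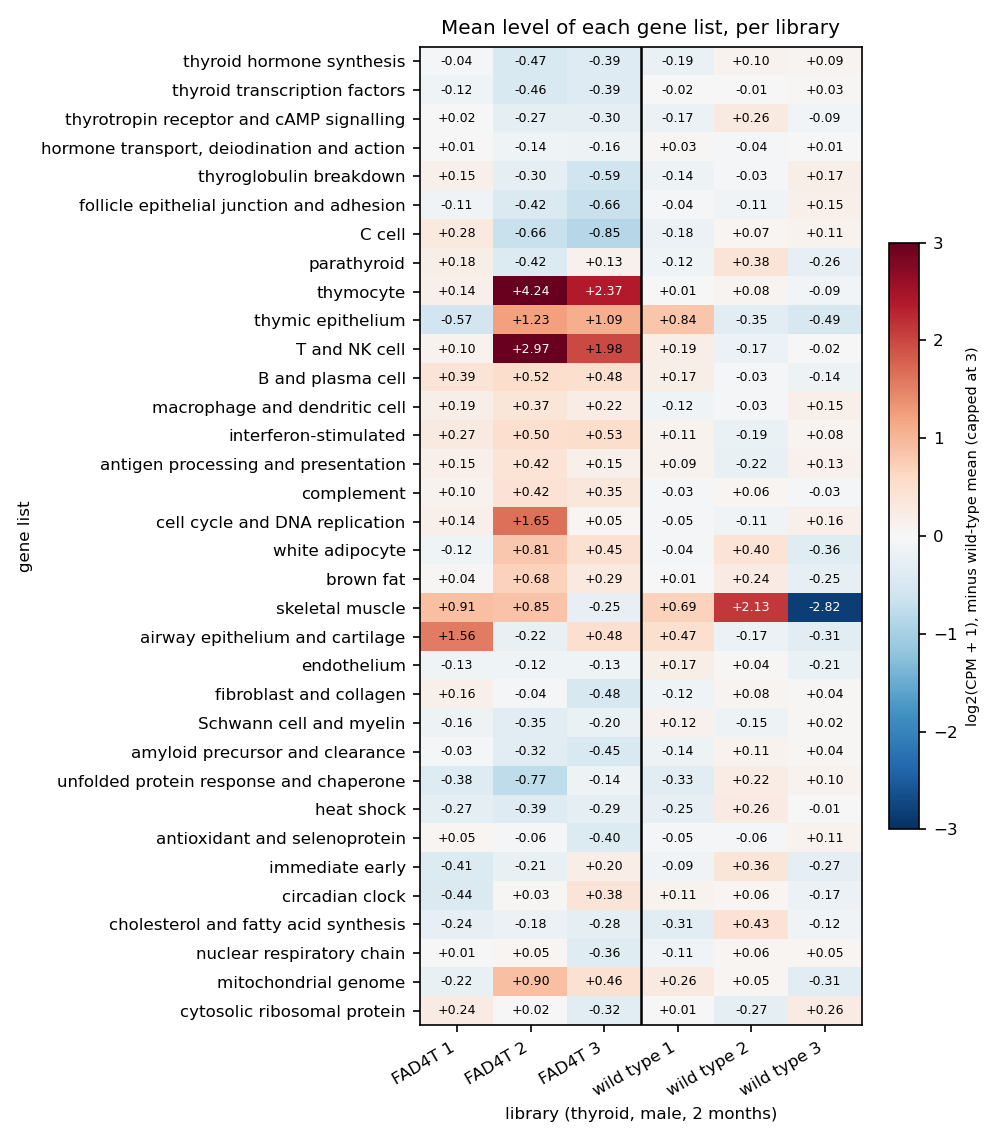
Mean level of 34 gene lists in each library, as the mean of log2(CPM + 1) over the members minus the mean of the 3 wild-type libraries, with FAD4T libraries left of the line; colours are capped at 3. Thymocyte genes stand at +0.14, +4.24 and +2.37 in FAD4T replicates 1 to 3, against -0.09 to +0.08 in wild-type libraries, and interferon-stimulated genes at +0.27, +0.50 and +0.53, against -0.19 to +0.11.

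Immunoglobulin genes were higher in all 3 FAD4T glands, FAD4T replicate 1 included. Ighm, the heavy chain of IgM, was at 32.4, 47.7 and 27.6 CPM in FAD4T glands, against 8.68, 10.4 and 11.3 CPM in wild-type glands (log2 fold change 1.82 ± 0.73 SE, adjusted p = 0.343 by edgeR). Igkc, the kappa light-chain constant gene, chosen after its values were seen, was at 15.6, 10.4 and 9.18 CPM in FAD4T glands, against 1.02, 0.395 and 0.298 CPM in wild-type glands (log2 fold change 4.32 ± 1.15 SE, adjusted p = 0.343 by edgeR, 0.00673 by DESeq2). Jchain, which joins IgM and IgA into polymers, was at 5.198, 3.10 and 2.68 CPM in FAD4T glands, against 2.10, 1.38 and 0.357 CPM in wild-type glands (log2 fold change 1.51 ± 0.75 SE). For all 3 genes the groups did not overlap, and FAD4T replicate 1 gave log2 fold changes of 1.68, 4.73 and 2.01 by itself. Igkc was the gene that edgeR called when the 12 male libraries were fitted alone, at an adjusted p of 0.0163. Over the 10 genes of the B and plasma cell list, of which 9 were tested, summed levels were 64.0, 71.9 and 60.8 CPM in FAD4T glands, against 38.2, 28.1 and 32.6 CPM in wild-type glands, and 1 member, Ighm, was at an unadjusted p under 0.05 (0 without FAD4T replicate 2 or wild-type replicate 2). 

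Macrophage genes were slightly higher. Of 14, 12 were higher in FAD4T glands, with a median log2 fold change of 0.30, and 3 were at an unadjusted p under 0.05, a count of 2 without FAD4T replicate 2 or wild-type replicate 1 and of 6 without wild-type replicate 3. Trem2, a lipid receptor of macrophages and microglia, was at 4.36, 3.94 and 3.99 CPM in FAD4T glands, against 2.33, 1.85 and 2.08 CPM in wild-type glands (log2 fold change 0.97 ± 0.33 SE, adjusted p = 0.343 by edgeR). The FAD4T libraries lay close together and above all wild-type libraries, and FAD4T replicate 1 alone gave 1.06. Cd68, a lysosomal protein of macrophages, was at 10.3, 17.7 and 13.6 CPM in FAD4T glands, against 7.89, 7.45 and 8.70 CPM in wild-type glands (log2 fold change 0.79 ± 0.22 SE). Mrc1, the mannose receptor, had a log2 fold change of 0.42 ± 0.18 SE. The summed level of the list was 212 to 247 CPM in FAD4T glands, against 159 to 216 CPM in wild-type glands, so that the groups overlapped.

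Interferon-stimulated genes were higher in FAD4T glands as a group. Of 28, 24 were higher, against 51.9% of all genes tested, with a median log2 fold change of 0.47. At an unadjusted p under 0.05 stood 14 with FAD4T higher (8.91% of all genes) and 0 with FAD4T lower (5.58% of all genes). In 13 the FAD4T libraries lay above the wild-type libraries without overlap (6.42% of all genes). Their levels summed to 602, 788 and 761 CPM in FAD4T glands, against 571, 459 and 555 CPM in wild-type glands. All 3 FAD4T libraries lay above all wild-type libraries, FAD4T replicate 1 by a small margin. With FAD4T replicate 1 as the only FAD4T library 24 of 28 members were higher (46.4% of all genes), with a median of 0.27, and 1 was at an unadjusted p under 0.05 (0.846% of all genes with FAD4T higher). Without FAD4T replicate 2 or 3 the count with all other libraries was 8, and without wild-type replicate 2, the lowest wild-type library for the list, it was 6. The summed thymocyte level was far above wild type in FAD4T replicates 2 and 3, while in replicate 1 it lay within the wild-type range by its sum and just above it by its mean of logs. The part of lymphoid cells in the size of the difference was not tested.

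The members with the smallest p were effectors and sensors. Ifi27l2a, an interferon-induced mitochondrial protein gene, was at 60.8, 136 and 97.7 CPM in FAD4T glands, against 45.7, 32.6 and 44.3 CPM in wild-type glands (log2 fold change 1.27 ± 0.30 SE, adjusted p = 0.343 by edgeR, 0.0115 by DESeq2). Zbp1, a sensor of Z-form nucleic acids, was at 1.96, 5.30 and 6.21 CPM in FAD4T glands, against 0.965, 0.988 and 1.13 CPM in wild-type glands (log2 fold change 2.12 ± 0.56 SE, adjusted p = 0.343 by edgeR, 0.0385 by DESeq2). Oas2, which makes the 2-5A signal for RNA decay, was at 6.99, 13.7 and 12.7 CPM in FAD4T glands, against 4.08, 3.36 and 4.41 CPM in wild-type glands (log2 fold change 1.49 ± 0.43 SE). In all 3 genes every FAD4T library lay above every wild-type library, and replicate 1 was the lowest FAD4T library.

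The antiviral GTPase Mx1 was at 2.85, 3.44 and 6.21 CPM in FAD4T glands, against 2.27, 0.725 and 1.07 CPM in wild-type glands (log2 fold change 1.61 ± 0.50 SE). Irf7, a transcription factor that carries the signal, was at 17.1, 22.9 and 26.2 CPM in FAD4T glands, against 15.1, 10.2 and 15.6 CPM in wild-type glands. In neither gene did the genotypes overlap. Other classical members overlapped: Isg15, a ubiquitin-like protein, was at 3.52, 6.48 and 8.66 CPM in FAD4T glands, against 4.20, 2.64 and 3.39 CPM in wild-type glands, and Ifit2, Ifih1, Gbp2 and Rsad2 were the 4 members with a log2 fold change below 0.

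Sequences just upstream of 4 genes are shown, and 3 of them, those of Socs1, Isg15 and Gbp3, hold the element through which interferon-activated factors are known to bind. The 150 bases that end at the base before the RefSeq start are given 5′ to 3′ in gene orientation, from the RefSeq promoters of GRCm38.p6, with every match to GAAANNGAAA, a shortened interferon-stimulated response element, on either strand in capitals. Socs1 and Tap1 are shown as genes whose difference was as large in FAD4T replicate 1, and Isg15 and Gbp3 as list members. They lie at chr16:10785537-10785686 on the minus strand (Socs1), chr4:156200819-156200968 on the minus strand (Isg15), chr3:142559894-142560043 on the plus strand (the first of the pair of Gbp3 promoters) and chr17:34187406-34187555 on the plus strand (Tap1).
Socs1: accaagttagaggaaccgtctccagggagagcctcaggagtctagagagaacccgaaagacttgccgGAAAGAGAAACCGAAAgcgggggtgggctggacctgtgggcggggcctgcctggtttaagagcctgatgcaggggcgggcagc
Isg15: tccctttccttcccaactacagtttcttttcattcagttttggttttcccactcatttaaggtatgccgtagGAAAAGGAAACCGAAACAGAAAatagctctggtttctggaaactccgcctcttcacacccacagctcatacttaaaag
Gbp3: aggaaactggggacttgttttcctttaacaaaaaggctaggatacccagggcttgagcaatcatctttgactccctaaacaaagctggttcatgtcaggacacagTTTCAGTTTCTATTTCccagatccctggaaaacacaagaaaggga
Tap1: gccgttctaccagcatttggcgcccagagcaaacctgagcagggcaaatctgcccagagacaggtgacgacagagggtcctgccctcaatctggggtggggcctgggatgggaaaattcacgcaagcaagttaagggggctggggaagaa

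Socs1 holds 2 overlapping matches, beginning 83 and 77 bases before the start, Isg15 holds 3 overlapping ones, at 78, 72 and 66 bases, and Gbp3 holds 2 on the opposite strand, at 45 and 39 bases. No match to these letters lies in the window shown for Tap1. The second Gbp3 promoter is not shown and holds 0 matches in its 300 bases. In the table's windows of 300 bases, 250 before and 50 after the start, 3.44% of 32851 promoters hold a match. Of the 28 list members 20 have a promoter there, and 12 of those hold a match: Ifit1, Ifit3, Isg15, Oas1a, Oas3, Stat2, Rsad2, Bst2, Gbp2, Gbp3, Ifih1 and Ddx58. Of these 12, Stat2, Isg15 and Gbp3 were at an unadjusted p under 0.05, while Rsad2, Gbp2 and Ifih1 had a log2 fold change below 0. Ifi27l2a, Zbp1, Oas2 and Mx1 are among the members with no promoter there, so the counts of matches leave them out. A second motif, TTCNNNGAA, to which STAT dimers are known to bind, is in 8.3% of all promoters and in 4 of the 20. For both motifs the share is over single promoters, while a list member counts if any of its promoters holds a match.

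The interferon-stimulated genes were not higher as a group in FAD4T females of 2 months or FAD4T males of 8 months, which share no library with the males of 2 months. In females 5 of 28 were higher in FAD4T glands (48.1% of all genes), with a median log2 fold change of -0.20, and in males of 8 months 10 of 28 (52.2% of all genes), with a median of -0.14. The mean of log2(CPM + 1) over the list was 3.87, 4.10 and 4.14 in FAD4T males of 2 months, against 3.71, 3.41 and 3.69 in wild-type males of 2 months. In females it was 4.37, 4.17 and 4.07 in FAD4T glands, against 4.59, 3.88 and 4.53 in wild-type glands. In females the genotypes overlapped. Wild-type female replicate 1 stood apart for liver genes, with a list mean of 7.27, against 1.31 to 2.04 in the other 5 female libraries, while in males of 8 months that mean was 4.66 to 5.12 in FAD4T glands and 4.24 to 5.06 in wild-type glands. Left out after its values were seen, it turned the count in females to 16 of 28 higher in FAD4T glands (51.6% of all genes), with a median log2 fold change of 0.04.

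The difference itself was tested gene by gene as an interaction. For the FAD4T effect in males minus that in females of 2 months, edgeR called 0 genes (0%) at an adjusted p of 0.05 and DESeq2 called 33. At an unadjusted p under 0.05, 12 of the 28 interferon-stimulated genes had the larger effect in males (2.24% of all genes) and 0 the larger effect in females (1.78% of all genes). Without wild-type female replicate 1, edgeR again called 0 genes (0%), and 4 of the 28 had the larger effect in males (1.16% of all genes) and 1 the larger effect in females. Counts were also lower without wild-type male replicate 2, at 5, and without FAD4T male replicate 3, at 6. Ifi27l2a had a log2 fold change of 1.27 in males and -0.23 in females (adjusted p of the difference = 0.99998 by edgeR, unadjusted p = 0.00187), and the value in females was 0.00 without wild-type female replicate 1. Bst2, which tethers budding viruses, had 0.30 in males and -0.61 in females (unadjusted p = 0.000439). For males of 2 minus males of 8 months, edgeR called 0 genes (0%) and DESeq2 called 16, and 10 of the 28 had the larger effect at 2 months at an unadjusted p under 0.05 (2.83% of all genes), Mx2 with the smallest p (0.000503), and 0 had the larger effect at 8 months (2.15% of all genes). That count of 10 was 4 without wild-type replicate 2, 5 without FAD4T replicate 3 and 6 without FAD4T replicate 2.

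Among genes at an unadjusted p under 0.05 in males, most had the same direction in females. Of the 1647 genes with FAD4T higher in males of 2 months, 89.7% were also higher in FAD4T females of that age, against 48.1% of all genes, and of the 1032 with FAD4T lower 86.3% were also lower, against 51.9% of all genes. In males of 8 months these shares were 60.4% (52.2% of all genes) and 50.4% (47.8% of all genes). The thymocyte list was high in 2 of 3 FAD4T females as well: its mean of log2(CPM + 1) was 4.25, 4.81 and 1.18 in FAD4T females, against 2.28, 0.991 and 1.09 in wild-type females. Of the 12 thymocyte genes, 0 differed in effect from females or from males of 8 months at an unadjusted p under 0.05. Klf3 was lower in FAD4T males (log2 fold change -0.42) but at 0.18 in females (unadjusted p of the difference = 0.00112, adjusted p = 0.99998 by edgeR), and Hp, the haemoglobin-binding acute-phase protein haptoglobin, was at 1.11 in males and -0.88 in females (unadjusted p of the difference = 0.000279). Liver also makes Hp, which was at 139, 142 and 80.3 CPM in FAD4T females, against 315, 144 and 206 CPM in wild-type females, highest in the replicate 1 that is high in liver genes. Without that library the log2 fold change of Hp in females was -0.56 (unadjusted p of the difference = 0.0011), and the part of liver RNA in it was not tested.

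**Figure D4:**
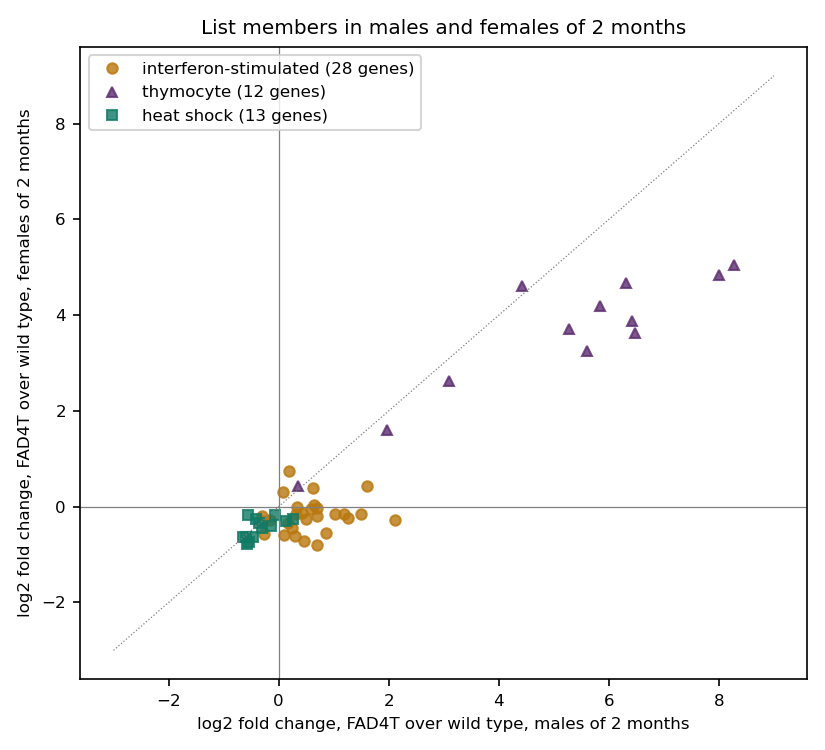
Log2 fold change of FAD4T over wild type in males (x axis) and females (y axis) of 2 months for the tested members of the interferon-stimulated, thymocyte and heat shock lists; the dotted line marks equal values. Thymocyte genes (purple triangles) lie above 0 on both axes, heat shock genes (green squares) mostly below 0 on both, and interferon-stimulated genes (orange circles) mostly above 0 in males and below 0 in females, where 16 of 28 were above 0 once wild-type female replicate 1 was left out.

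Genes of antigen presentation and complement were higher in part. Of 17 antigen-presentation genes 14 were higher (median log2 fold change 0.16) and 4 were at an unadjusted p under 0.05: Tap1, the immunoproteasome subunits Psmb9 (0.76 ± 0.30 SE) and Psmb8 (0.55 ± 0.25 SE), and Nlrc5, the activator of MHC class I genes (0.97 ± 0.40 SE). The last 3 overlapped between genotypes, and without FAD4T replicate 2 or wild-type replicate 2 the count was 1. Of 11 complement genes 10 were tested and 3 were higher at an unadjusted p under 0.05. C4b, of the classical pathway, was at 20.4, 32.2 and 28.2 CPM in FAD4T glands, against 11.0, 14.2 and 13.0 CPM in wild-type glands (log2 fold change 1.08 ± 0.40 SE, adjusted p = 0.343 by edgeR), and shares sequence with a paralogue, so its count is uncertain. Cfp, the stabiliser properdin, had a log2 fold change of 0.85 ± 0.28 SE. Without FAD4T replicate 2 or wild-type replicate 1 the count of complement genes was 2. Cfd, the factor D made chiefly by fat cells, was at 188, 509 and 382 CPM in FAD4T glands, against 186, 152 and 147 CPM in wild-type glands (log2 fold change 1.15 ± 0.34 SE), with FAD4T replicate 1 next to wild-type replicate 1.

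Fat cell genes were highest in FAD4T replicates 2 and 3. Cfd is itself a member of the white adipocyte list and is part of its counts and sums below. Of 15 white adipocyte genes 14 were higher (median log2 fold change 0.42) and 5 were at an unadjusted p under 0.05. They summed to 1520, 2972 and 2464 CPM in FAD4T glands, against 1499, 1823 and 1250 CPM in wild-type glands, with FAD4T replicate 1 within the wild-type range. Without FAD4T replicate 2 or wild-type replicate 3, 1 of the 15 was at an unadjusted p under 0.05, without FAD4T replicate 3 there were 3, and without wild-type replicate 2 there were 8. Fabp4, the fatty-acid carrier of adipocytes, was at 453, 992 and 972 CPM in FAD4T glands, against 480, 521 and 338 CPM in wild-type glands (log2 fold change 0.85 ± 0.31 SE). Of 10 brown fat genes 7 were higher and 3 were at an unadjusted p under 0.05 (1 without FAD4T replicate 2 or wild-type replicate 3), among them Cox8b, a cytochrome oxidase subunit of brown fat and muscle, at 15.3, 45.1 and 32.9 CPM in FAD4T glands, against 13.8, 12.8 and 9.17 CPM in wild-type glands (log2 fold change 1.38 ± 0.42 SE). The fat lists had another direction elsewhere. In females 6 of 15 white adipocyte genes (median -0.05) and 3 of 10 brown fat genes (median -0.10) were higher in FAD4T glands, and in males of 8 months 3 of 15 (median -0.34) and 0 of 10 (median -0.60). The larger effect in males of 2 months had an unadjusted p under 0.05 for 2 white and 3 brown fat genes against females (2.24% of all genes), and for 6 and 4 against males of 8 months (2.83% of all genes). The part of surrounding fat in the levels of Cfd and Hp was not tested.

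Proliferation genes stood out in a single library. Of 22 cell cycle and DNA replication genes 18 were higher (median log2 fold change 1.34) and 12 were at an unadjusted p under 0.05, but their levels summed to 181, 412 and 145 CPM in FAD4T glands, against 165, 181 and 196 CPM in wild-type glands. Mki67, the Ki-67 marker of cycling cells, was at 5.03, 58.2 and 5.70 CPM in FAD4T glands, against 2.89, 3.29 and 3.99 CPM in wild-type glands. FAD4T replicate 2, the library with the highest thymocyte sum, was far above the rest. Without it 0 of the 22 were at an unadjusted p under 0.05, with a median of 0.07. Without wild-type replicate 1 or 2 there were 7 or 5.

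Neighbouring tissues varied between libraries of both genotypes. Secretory airway genes were high in FAD4T replicate 1: Bpifa1, a secreted airway protein, was at 318, 6.59 and 23.9 CPM in FAD4T glands, against 45.2, 13.0 and 12.2 CPM in wild-type glands, and Scgb1a1, the club cell secretoglobin, at 34.2, 0 and 0.399 CPM in FAD4T glands, against 1.76, 0.329 and 0.179 CPM in wild-type glands. Without that library their log2 fold changes turned to -0.65 and -1.95. Genes of ciliated cells were highest in FAD4T replicate 3: Foxj1, the regulator of motile cilia, was at 1.51, 1.296 and 6.10 CPM in FAD4T glands, against 1.70, 0.593 and 0.834 CPM in wild-type glands, and Dnah5, a ciliary dynein, at 0.894, 0.0564 and 1.596 CPM in FAD4T glands, against 0.170, 0 and 0.0596 CPM in wild-type glands. Of 11 genes of airway epithelium and cartilage 10 were tested and 4 were at an unadjusted p under 0.05, a count of 1 without wild-type replicate 2 or 3, of 7 without wild-type replicate 1 and of 6 without FAD4T replicate 2. Skeletal muscle genes summed to 1450, 1410 and 511 CPM in FAD4T glands, against 1240, 4655 and 41.7 CPM in wild-type glands, and 0 of 17 tested were at an unadjusted p under 0.05. Pth, the parathyroid hormone gene, was at 10529, 11929 and 23672 CPM in FAD4T glands, against 10741, 9738 and 7899 CPM in wild-type glands. Of 8 C cell genes 4 were lower without FAD4T replicate 1 (17% of all genes), against 0 with all libraries, and 1, Calcb, the beta form of calcitonin gene-related peptide, was higher at an unadjusted p under 0.05, at 1.79, 2.87 and 4.56 CPM in FAD4T glands, against 1.59, 0.725 and 1.19 CPM in wild-type glands (log2 fold change 1.38 ± 0.43 SE). The peptide-processing enzyme Pcsk1 was at 36.8, 13.98 and 11.1 CPM in FAD4T glands, against 26.6, 46.3 and 35.0 CPM in wild-type glands.

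Heat shock genes were lower in FAD4T glands. Of 13, 11 were lower (47.9% of all genes), with a median log2 fold change of -0.41, and 5 were at an unadjusted p under 0.05. That count was 8 without wild-type replicate 1, 2 without FAD4T replicate 3 or wild-type replicate 3, 1 without FAD4T replicate 2 and 0 without wild-type replicate 2. The count of all genes with FAD4T lower moved as well, from 1032 to 1799, 269, 583, 325 and 329 without those libraries, in that order. Hspa1b, an inducible HSP70, was at 28.5, 23.1 and 19.4 CPM in FAD4T glands, against 29.9, 47.8 and 33.7 CPM in wild-type glands (log2 fold change -0.65 ± 0.28 SE), and its near-identical copy Hspa1a was at 15.0, 13.6 and 11.6 CPM in FAD4T glands, against 15.7, 26.4 and 17.2 CPM in wild-type glands (-0.56 ± 0.21 SE). Both had all FAD4T libraries below all wild-type ones, narrowly for replicate 1 of each genotype, and their division of reads is uncertain. Dnajb1, a cochaperone of HSP70, was at 33.8, 31.1 and 38.2 CPM in FAD4T glands, against 38.5, 52.5 and 46.2 CPM in wild-type glands (-0.41 ± 0.18 SE). In FAD4T replicate 1 alone 0 of the 13 genes were higher (46.4% of all genes), and in females of 2 months 0 of 13 were (48.1% of all genes). In males of 8 months 6 of 13 were higher (52.2% of all genes), with a median of -0.01. Of 18 genes of the unfolded protein response and endoplasmic reticulum chaperones 15 were lower (median -0.36) and 0 were at an unadjusted p under 0.05. Hspa5, the chaperone BiP, was at 728, 523 and 870 CPM in FAD4T glands, against 818, 1712 and 1366 CPM in wild-type glands.

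Clock genes set FAD4T replicate 1 apart. Arntl, which encodes the activator BMAL1, was at 14.5, 8.51 and 5.87 CPM in FAD4T glands, against 4.82, 3.89 and 6.25 CPM in wild-type glands. Per3, a repressor of the clock, was at 57.2, 121 and 190 CPM in FAD4T glands, against 142, 123 and 88.7 CPM in wild-type glands, and Dbp, a clock output factor, at 126, 251 and 252 CPM in FAD4T glands, against 282, 223 and 237 CPM in wild-type glands. FAD4T replicate 1 had the highest Arntl and the lowest Per3 and Dbp of the 6 libraries. With it as the only FAD4T library 5 of 15 clock genes were lower (0.841% of all genes) and 1 was higher (0.846%) at an unadjusted p under 0.05, with a median of -0.73, against 0.06 with all 3. Cry2, a repressor of the clock, was lower in all 3, at 50.9, 47.7 and 50.3 CPM in FAD4T glands, against 62.5, 63.8 and 71.7 CPM in wild-type glands (log2 fold change -0.41 ± 0.17 SE, adjusted p = 0.343 by edgeR). Hours of dissection are not given in the labels, and their part in these values was not tested.

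The amyloid precursor and its processing genes were slightly lower. Of 20 genes 17 were lower (47.9% of all genes), at a median log2 fold change of -0.31. With FAD4T replicate 1 as the only FAD4T library the median was -0.03. Aplp2, a relative of the amyloid precursor (-0.50 ± 0.23 SE), was the only 1 of the 20 at an unadjusted p under 0.05. That is near the share of all genes with FAD4T lower (5.58%). Without FAD4T replicate 1, 10 of the 20 were lower at that p (17% of all genes) and 1 was higher. App, the amyloid precursor gene, was at 945, 804 and 631 CPM in FAD4T glands, against 963, 1030 and 1044 CPM in wild-type glands (log2 fold change -0.35 ± 0.26 SE, adjusted p = 0.468 by edgeR). The prion gene Prnp was at 90.2, 80.4 and 76.5 CPM in FAD4T glands, against 86.9, 92.1 and 87.1 CPM in wild-type glands. In App the 3 FAD4T libraries lay below the 3 wild-type libraries, replicate 1 by a small margin, while Aplp2 and Prnp overlapped between the genotypes.

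Of 20 cholesterol and fatty-acid genes 1 was higher and 2 lower at an unadjusted p under 0.05 (median log2 fold change -0.22), and Idi1, of isoprenoid synthesis, was at 5.09, 1.07 and 0.969 CPM in FAD4T glands, against 2.55, 9.55 and 6.55 CPM in wild-type glands. Of 20 nuclear respiratory-chain genes 1 was higher and 2 lower (median -0.05). The 13 protein-coding genes of the mitochondrial genome were all higher (median 0.52), with 0 at an unadjusted p under 0.05, and summed to 22783, 52200 and 33479 CPM in FAD4T glands, against 30520, 32249 and 19468 CPM in wild-type glands, with FAD4T replicate 1 within the wild-type range. Without that library 5 of the 13 were higher at that p (14.3% of all genes). Ribosomal protein genes had 3 of 20 higher and a median of -0.05, and endothelial and collagen genes 0 of 13 and 0 of 14 in either direction. Of 10 Schwann cell and myelin genes 2 were lower and 0 higher (median -0.31). Antioxidant and selenoprotein genes had 0 of 18 and immediate early genes 1 of 14, with FAD4T higher. Without FAD4T replicate 1 the counts with FAD4T lower were 6 of 20 ribosomal, 5 of 18 antioxidant, 5 of 20 nuclear respiratory-chain, 4 of 20 cholesterol and fatty-acid and 4 of 10 Schwann cell genes (17% of all genes). Of 10 liver genes, listed as markers of another organ, 0 were at an unadjusted p under 0.05.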

How the data were processed

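The members of the comparison and the gene lists were chosen with earlier results of these data known. The authors deposited integer counts per gene, over read pairs, made with featureCounts 1.6.0 on exons of the Ensembl 88 annotation of GRCm38 with no strand option, per the file headers. Reads of overlapping or antisense genes can therefore be mixed, although the libraries were strand-marked with dUTP, per the labels' protocols. The headers name alignments made with STAR. Different steps stand in the submitters' processing notes, with GRCm39 as the build and HISAT2 2.0.4, StringTie 1.3.4d and cutadapt 1.9 as tools.

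Genes were tested with edgeR 4.0.16 in R 4.3.3 (TMM, filterByExpr at a minimum count of 10, robust quasi-likelihood fit, Benjamini-Hochberg adjustment at 0.05). The fit held the 24 libraries of 8 groups of 3, FAD4T and wild type of both sexes at 2 and 8 months, with 1 mean per group. It left 16 residual degrees of freedom and had a common biological coefficient of variation of 0.298. Interactions with females of 2 months and with males of 8 months were contrasts of the same fit. DESeq2 1.42.0, other filters and scalings, other sets of libraries, a replicate block and libraries left out were alternatives. The procedure was tested on simulated data with 200 changed genes. Of 50686 gene identifiers 50376 matched a symbol. Named genes were the 15 with the smallest p in each direction with a mean of at least 5 CPM in 1 genotype and no overlap between genotypes, up to 4 per list, fixed thyroid and amyloid genes, and others picked after their values were seen. Unnamed gene models, pseudogenes and receptor segments were left out. Some genes are not reported here.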

Additional observations from a re-analysis of the deposited data

How the results depend on the processing

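The count of genes at an adjusted p under 0.05, 0 by edgeR on 24 libraries, was 102 by DESeq2 on 24 libraries, 59 by DESeq2 on 6, 1 by edgeR on the 12 male libraries, and 0 to 36 with each library left out in turn (36 without FAD4T replicate 1). DESeq2 called 33 genes for the difference from females and 16 for that from males of 8 months. At an unadjusted p under 0.05, the 1647 genes with FAD4T higher became 1019 by DESeq2 on 6 libraries, 960 by edgeR on 6 libraries, 777 to 2698 with each library left out, and 169 with FAD4T libraries 2 and 3 left out. The 1032 genes with FAD4T lower became 637 by edgeR on 6 libraries, 1752 on the 12 male libraries, 269 to 3219 with each library left out, and 168 with FAD4T libraries 2 and 3 left out. The cause of these differences was not tested. Interferon-stimulated genes with the larger effect in males numbered 12 against females and 10 against males of 8 months at an unadjusted p under 0.05. With FAD4T libraries 2 and 3 left out these were 2 and 3, with single libraries left out 4 to 13 and 4 to 12, and without wild-type female replicate 1, an alternative added after seeing the data, 4 and 10. Same-numbered FAD4T and wild-type libraries had correlations of deviations of -0.52, -0.09 and -0.09, and other pairs had -0.30 to 0.44. With 3 libraries per genotype these values cannot decide whether the numbers pair the mice. With the replicate block in 6 libraries 356 genes had FAD4T higher and 189 lower at an unadjusted p under 0.05. Of 94 genes, 82 kept the direction of their log2 fold change under every alternative run. With FAD4T libraries 2 and 3 left out, it turned to 0.25 for Foxe1, 0.026 for Lrp2, 0.10 for Dio1, 0.033 for Pcsk1, -0.39 for Tcf7, -0.081 for Aire, -0.64 for Ccl25, 0.024 for Prnp, -0.013 for Cox5b and -0.19 for mt-Nd4. Leaving out 1 library at a time, the log2 fold change was -0.65 to 3.21 for Bpifa1 and -1.95 to 5.49 for Scgb1a1, lowest without FAD4T replicate 1. With 3 libraries per genotype, genes of a few counts, such as Rag1 and Dntt in wild type, have the widest error.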
